A study of Caenorhabditis elegans with 12 samples.

Results

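Aged adults lacking the microRNA mir-71 were compared with aged wild-type adults across all genes. The comparison rests on 6 of the 12 libraries of the study. The first 3 came from mir-71(n4115) animals and the other 3 from N2, the laboratory wild type of Caenorhabditis elegans, all at day 5 of adulthood. The other 6 libraries, of the same genotypes at day 0, served only to estimate the spread and to show which day 5 differences also stood at day 0. All groups were kept at 20 °C and on plates with 0.1 mg/mL of 5-fluorodeoxyuridine (FUdR) from about the start of adulthood. FUdR is an inhibitor of DNA synthesis that keeps the eggs of aging cultures from developing. Whole animals were frozen and poly(A) RNA was sequenced, so every value mixes all tissues. The mutants carry a single allele, and rescued or other mutant lines are not analysed here.

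MicroRNAs are short RNAs that, held by an Argonaute protein, pair through their seed with sites in messenger RNAs and lower the stability or translation of those messages. mir-71 is known as a microRNA that favours long life in C. elegans: animals without it live shorter and are more sensitive to stress, and part of that effect has been traced to the insulin pathway and its transcription factor DAF-16. The same microRNA acts on tir-1, a gene of neuronal asymmetry and of innate immunity. Direct targets of a lost microRNA are expected among transcripts that rise, whereas transcripts that change indirectly can go either way.

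Read depth at day 5 was 45525440 to 60842599 counts in the mutant libraries and 21374849 to 51997177 in the N2 libraries. A total of 3 counts, the limit that a count of 0 allows for counting error, came to between 0.048 and 0.157 CPM (counts scaled to a common library total). The first principal component of the 6 libraries held 59.3% of the variance and separated the genotypes, with mutants between -60.8 and -34.9 and N2 between 21.5 and 65.3. N2 replicate 2 lay nearest to the mutants on it. Of the mutant libraries, replicate 3 lay nearest to N2 on it, and it also resembled N2 in its most abundant genes. Its 10 most abundant genes held 18.1% of its counts, against 11.2% and 11.0% in the other mutant libraries and 14.5% to 18.6% in N2. Marker genes of intestine, muscle, pharynx, neurons, germ line and oocytes were present in all 6 libraries. The sperm genes msp-10 and spe-9 and the cuticle collagen genes dpy-7 and rol-6, which are made during molts, were near 0 in all of them.

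At day 5 the genotypes differed in many genes. Of 16764 genes tested, 1279 were higher in mutants (7.63%) and 519 were lower (3.10%), by edgeR's quasi-likelihood test at a Benjamini-Hochberg adjusted p under 0.05. The rises were the larger changes: 927 genes rose and 195 fell by more than 2-fold, and 259 rose and 76 fell by more than 4-fold. Rises made up 71.1% of the calls with TMM scaling, 57.4% with RLE scaling, 54.2% with DESeq2 and 57.8% on the authors' rlog values, and no called gene had the opposite sign under any of these. The number of rises dropped to 509 without mutant replicate 1, 550 without N2 replicate 1 and 480 without N2 replicate 3. The number of falls dropped to 117, 192 and 317 without mutant replicates 1, 2 and 3, and to 203 and 122 without N2 replicates 1 and 3. Per the study's design text the replicates are biological triplicates.

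Rises and falls differed in how strongly their genes were expressed. The genes that rose had a median level of 2.50 log2 CPM over the 12 libraries, the genes that fell 5.19 and all genes tested 2.69. The median log2 fold change was 0.35 among the 4240 genes with a mean below 0 log2 CPM and -0.18 among the 2642 genes between 6 and 8, against 0.05 over all genes. List medians below are therefore to be read beside the level of their members. In 38.4% of all genes tested the 3 mutant and the 3 N2 values did not overlap. Among called genes this held for 1276 of 1279 rises and 517 of 519 falls. Where a called gene is said below to separate the genotypes, that adds no support beyond the call.

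**Figure D1:**
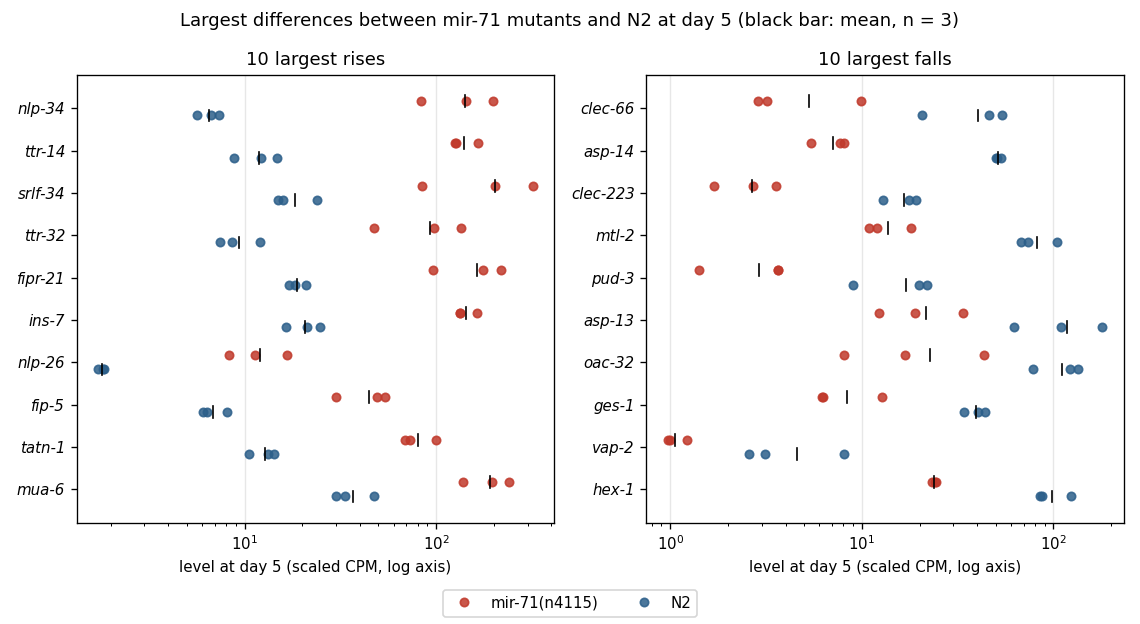
Levels of the 10 genes with the largest rises (left) and the 10 with the largest falls (right) among well-expressed named genes, in scaled CPM on a log axis, with 1 point per library, mutants above N2 in each row and a black bar at the mean of 3. The values of the genotypes do not overlap in any row, which the choice of these genes required.

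The locus itself came first as a check of the strain. mir-71 lies on chromosome I at 9379927 to 9380020 (WBcel235, minus strand) and had 0 counts in every library. Those counts do not separate the genotypes, since N2 had 0 as well, and mature microRNAs carry no poly(A) tail and were not sampled. Around it lies ppfr-1, a gene for a regulatory subunit of protein phosphatase 4 (chromosome I, 9364099 to 9389982, minus strand, WBGene00008878), and mir-71 falls within an intron of that gene 10404 bases long. The level of ppfr-1 was 808, 591 and 703 CPM in mutants, against 151, 159 and 182 CPM in N2. Every mutant library was far above every N2 library, with a log2 fold change of 2.09 ± 0.20 (SE, n = 3 per genotype, edgeR adjusted p = 0.000171). The noncoding transcript F16A11.5 in the same intron had 173, 173 and 162 counts in mutants, against 5, 6 and 1 in N2. The transcript F16A11.8, which starts beside mir-71, had 20, 17 and 23 counts in mutants and 0 in each N2 library. The small nucleolar RNA F16A11.12 had 24 counts over the mutant libraries and 0 over the N2 libraries. The microRNA gene cel-mir-2 in this intron had 15 and 2. F16A11.6, which overlaps mir-71, had 0 in every day 5 library. The antisense RNA anr-20, which overlaps the end of the intron, did not pass, at 1.08, 1.38 and 1.20 CPM in mutants and 0.977, 1.07 and 1.26 CPM in N2 (0.15 ± 0.26, adjusted p = 0.753). Whether reads were counted by strand is not known here, so reads of the intron and of features that overlap cannot be told apart. The other measured subunits of the phosphatase did not share the rise of ppfr-1: ppfr-4 was lower (-0.57 ± 0.16, adjusted p = 0.0387, a call lost without mutant replicates 1, 2 or 3 or N2 replicates 1 or 3), and 4 of the 6 tested members of that list did not pass. Among the 439 tested genes within 1 Mb of mir-71, 28 rose and 18 fell, or 6.38% and 4.10%, near the shares over all genes.

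Most genes of a list of epidermal antimicrobial peptides rose. The neuropeptide-like (nlp) and caenacin (cnc) genes of this list encode glycine-rich peptides with antimicrobial activity that the epidermis makes after wounding or fungal infection. Of 19 tested members 11 rose (57.9%, against 7.63% over all genes) and none fell, and the median log2 fold change was 1.51. The summed level of the list was 984, 1150.4 and 583 CPM in mutants, against 167, 266 and 210.0 CPM in N2, or 4.23-fold higher. nlp-34 stood at 143, 198 and 83.2 CPM in mutants, against 5.65, 7.38 and 6.65 CPM in N2. Its lowest mutant value lay far above its highest N2 value, and its log2 fold change was 4.42 ± 0.53 (adjusted p = 0.000511). cnc-6 was at 128, 213 and 77.7 CPM in mutants, against 4.20, 7.83 and 6.23 CPM in N2 (4.51 ± 0.51, adjusted p = 0.000371). nlp-27, which lies beside nlp-34 on chromosome V, was at 157, 157 and 101 CPM in mutants, against 44.8, 53.9 and 47.0 CPM in N2 (1.51 ± 0.19, adjusted p = 0.000662). Mutant replicate 3 gave the lowest mutant value for all 3 genes and still lay above all N2 libraries. In a bulk sample, fewer cells of a type and less RNA per cell cannot be told apart, and this holds for all tissue lists here. The number of calls in the list was 10 to 14 without each library in turn.

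The fip and fipr peptide genes split. Among 25 tested genes, of fungus-induced peptides (fip) and peptides related to them (fipr), 3 rose (12%, against 7.63% over all genes) and 2 fell (8%, against 3.10%). The summed level of the list was 425, 473 and 249 CPM in mutants, against 120, 193 and 127 CPM in N2, or 2.61-fold higher. fipr-21 was at 175, 217 and 96.4 CPM in mutants, against 18.4, 20.9 and 17.1 CPM in N2 (3.11 ± 0.33, adjusted p = 0.000311). Its neighbour on the X chromosome, fip-5, was at 49.2, 53.95 and 30.0 CPM in mutants, against 8.11, 6.36 and 6.07 CPM in N2 (2.70 ± 0.31, adjusted p = 0.000381). fip-6 rose by 2.13 ± 0.34. The genes that fell, fipr-23 (-3.47, adjusted p = 0.0143) and fipr-1 (-2.50, adjusted p = 0.0213), were named after their values were seen. Members of the nlp, cnc and fipr families lie in clusters of similar genes, and how reads were split among members is uncertain.

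The kinase pathway that drives these peptides in the epidermis moved less. The TIR-1 and p38 list held 4 rises (25%, against 7.63% over all genes) and no fall among 16 tested genes, with a median of 0.41. snf-12, a transporter needed for the peptide response, was at 5.70, 5.57 and 3.28 CPM in mutants, against 1.44, 1.27 and 1.41 CPM in N2 (1.82 ± 0.42, adjusted p = 0.019). nipi-4 rose by 1.36 ± 0.31 (adjusted p = 0.0167) and nipi-3, a Tribbles-like regulator, by 0.84 ± 0.22 (adjusted p = 0.0315). tir-1, the Toll and interleukin 1 receptor domain gene at the head of the pathway and a published target of mir-71, was at 117, 93.3 and 97.1 CPM in mutants, against 56.6, 60.6 and 52.6 CPM in N2. The genotypes did not overlap for tir-1, and the difference was 0.85 ± 0.25 (adjusted p = 0.0461), a call lost with RLE scaling, with TMM factors taken without germline, yolk and collagen genes, and when any one of the 6 libraries was left out. The list kept 0 calls without mutant replicate 1, N2 replicate 1 or N2 replicate 3, and 2 without any other library. The call of snf-12 was lost without mutant replicates 1 or 2 or N2 replicates 1 or 3, that of nipi-4 without mutant replicate 1 or N2 replicates 1 or 3, and that of nipi-3 when any one of the 6 libraries was left out.

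A few insulin-like peptide genes rose strongly. C. elegans has a large family of insulin-like genes that act on a single receptor, DAF-2, and signalling through the receptor keeps the transcription factor DAF-16 out of the nucleus. Of 31 tested members 4 rose (12.9%, against 7.63% over all genes) and none fell, with a median of 0.47, and the same number of calls or more was found without each library in turn. The summed level was 211, 237 and 195 CPM in mutants, against 70.6, 80.5 and 60.8 CPM in N2. Most of that sum was ins-7, an activating ligand that DAF-16 represses. ins-7 was at 132, 163 and 134 CPM in mutants, against 21.1, 24.7 and 16.5 CPM in N2, a difference of 6.87-fold (log2 2.78 ± 0.20, adjusted p = 3.92e-05). ins-4, another activating ligand, was at 15.3, 17.5 and 8.04 CPM in mutants, against 2.17, 3.34 and 1.78 CPM in N2 (2.47 ± 0.35, adjusted p = 0.00132). ins-8 had 219 counts over the mutant libraries and 2 over the N2 libraries (adjusted p = 0.00157). The remaining call, ins-9 (2.50, adjusted p = 0.00391), was named after its values were seen. ins-7 and ins-4 had their lowest mutant values above their highest N2 values.

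The receptor and kinases of the pathway did not follow the ligands. Of 18 tested core genes only ftt-2, a 14-3-3 protein that holds DAF-16 in the cytoplasm, was called (0.63 ± 0.13, adjusted p = 0.0111, lost without mutant replicate 1 or N2 replicate 3). daf-16 was at 229, 221 and 262 CPM in mutants, against 245, 234 and 273 CPM in N2, and the genotypes overlapped (-0.08 ± 0.16, adjusted p = 0.787). The receptor gene daf-2 was at 93.5, 112 and 128 CPM in mutants, against 167, 120 and 178 CPM in N2 (-0.48 ± 0.24, adjusted p = 0.21). age-1, the phosphoinositide kinase, was at 46.5, 51.9 and 57.6 CPM in mutants, against 67.6, 64.5 and 85.6 CPM in N2 (-0.48 ± 0.17, adjusted p = 0.0891). Their values lay lower in mutants for age-1 and overlapped between genotypes for daf-2, and neither passed.

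Genes that DAF-16 induces were lower more often than higher. Of 27 tested members of that list 7 fell (25.9%) and 1 rose (3.70%), with a median of -0.39, beside 3.10% and 7.63% over all genes. The summed level of the list overlapped between genotypes, at 5180.5, 5092 and 6524 CPM in mutants and 5943, 5161 and 6486 CPM in N2. The metallothionein gene mtl-1, which encodes a metal-binding protein of the gut, showed one of the deepest falls: 1.42, 0.995 and 1.76 CPM in mutants, against 66.5, 53.2 and 67.7 CPM in N2. That is 45.1-fold lower (log2 -5.50 ± 0.39, adjusted p = 3.92e-05). mtl-2 was at 18.0, 11.0 and 12.0 CPM in mutants, against 104, 73.3 and 67.9 CPM in N2 (-2.58 ± 0.32, adjusted p = 0.000595). dod-6 was at 75.0, 62.4 and 63.5 CPM in mutants, against 143, 184 and 213 CPM in N2 (-1.43 ± 0.18, adjusted p = 0.000549). All 3 were lower in every mutant library than in any N2 library. sod-3, the mitochondrial superoxide dismutase often used as a reporter of DAF-16, was at 0.741, 0.529 and 0.489 CPM in mutants, against 1.87, 1.68 and 1.94 CPM in N2 (-1.63 ± 0.37, adjusted p = 0.018, lost without mutant replicates 2 or 3 or N2 replicates 1 or 3). The count of falls in the list was 4, 3, 4 and 3 without mutant replicate 1, mutant replicate 2, N2 replicate 1 and N2 replicate 3. The list of genes that DAF-16 represses, 16 tested, held 3 rises (18.8%) and 2 falls (12.5%). Its summed level was 0.80-fold that of N2, with overlapping genotypes. Its rises were ins-7, dod-20 (1.89 ± 0.29, adjusted p = 0.00186) and the gut peptide transporter gene pept-1 (1.38, adjusted p = 0.0143), the last named after its values were seen. Its falls were the lectin gene clec-186 (-1.82 ± 0.30, adjusted p = 0.00309) and cld-9, also named after its values were seen (-1.07, adjusted p = 0.0184).

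**Figure D2:**
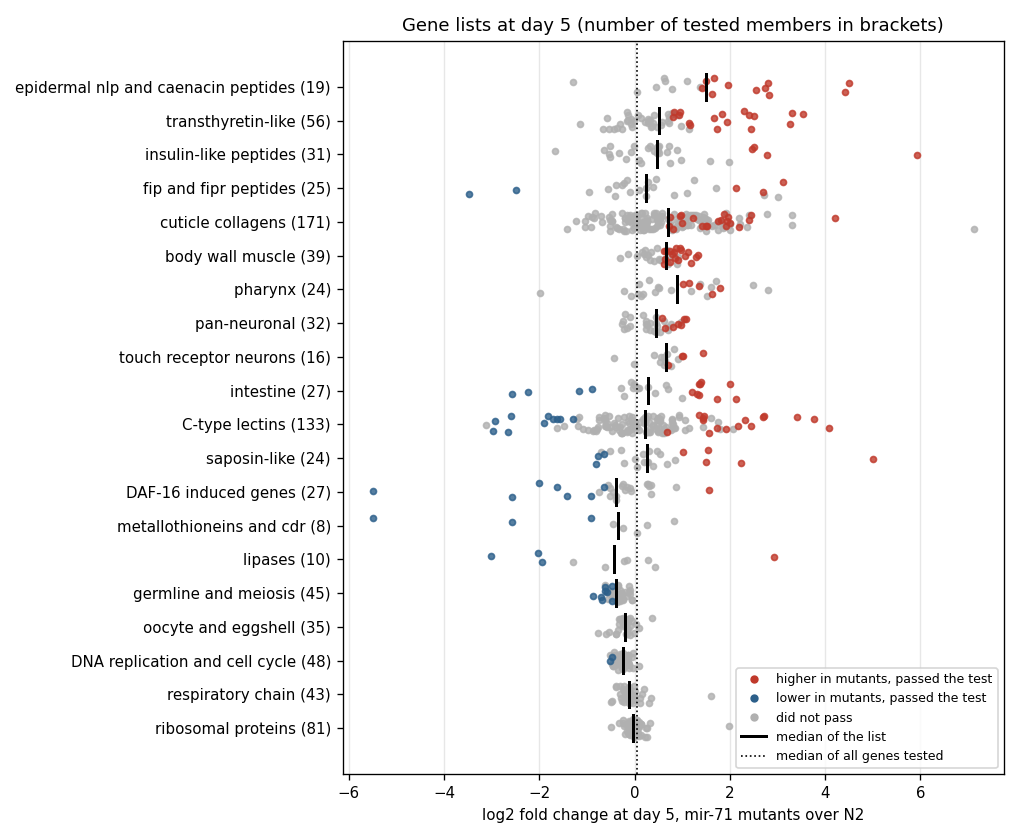
Log2 fold changes at day 5, mir-71 mutants over N2, of the tested members of 20 gene lists, with 1 point per gene coloured by the outcome of the test. Black bars mark list medians, from 1.51 for epidermal peptides to -0.42 for lipases, and the dotted line marks the median of all genes tested at 0.05.

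Many transthyretin-like genes rose and none fell. They encode small secreted proteins that resemble the vertebrate hormone carrier transthyretin, and most have no assigned role. Of 56 tested members 17 rose, or 30.4% against 7.63% over all genes, with a median of 0.51 and a summed level 1.44-fold higher in mutants. ttr-14 was at 166, 127 and 125 CPM in mutants, against 12.2, 14.8 and 8.85 CPM in N2 (3.53 ± 0.39, adjusted p = 0.000326). ttr-32 was at 97.6, 134 and 47.3 CPM in mutants, against 8.62, 12.1 and 7.44 CPM in N2 (3.30 ± 0.34, adjusted p = 0.000285). ttr-33, known for protecting dopaminergic neurons from oxidative damage, was at 52.8, 50.8 and 33.1 CPM in mutants, against 6.16, 11.2 and 6.60 CPM in N2 (2.50 ± 0.27, adjusted p = 0.000325). In each gene every mutant library exceeded every N2 library, and the family count stayed between 14 and 21 without any 1 library.

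A minority of cuticle genes rose and none fell. Collagens form the cuticle that the epidermis secretes. Of 171 tested genes of the cuticle list 21 rose and none fell, or 12.3% rises against 7.63% over all genes, with a median of 0.71 (0.12 on the authors' rlog values). col-140 was at 1705, 700.4 and 954 CPM in mutants, against 332, 277 and 272 CPM in N2 (1.93 ± 0.28, adjusted p = 0.00157). lon-1, a secreted protein of the epidermis that limits body length, was at 119.2, 103 and 72.1 CPM in mutants, against 42.7, 40.8 and 42.4 CPM in N2 (1.22 ± 0.19, adjusted p = 0.00218). The adult collagen gene col-19, a marker of the epidermis, was at 445, 266 and 264 CPM in mutants, against 136, 87.7 and 116 CPM in N2 (1.52, adjusted p = 0.00297). mua-6, an intermediate filament of the epidermis that anchors muscle, was at 241, 196 and 138 CPM in mutants, against 30.0, 33.3 and 47.5 CPM in N2 (2.38 ± 0.38, adjusted p = 0.00269). The named genes stood above all N2 libraries in all 3 mutant libraries. The count of cuticle calls dropped to 10 without mutant replicate 1 and 11 without N2 replicate 3. Collagen genes resemble each other, and how reads were split among them is uncertain.

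Part of the muscle genes rose and none fell. Of 39 tested body wall muscle genes 18 rose and none fell, or 46.2% rises against 7.63% over all genes, with a median of 0.66 (0.37 on rlog values). The summed level was 7702, 6811 and 7228 CPM in mutants, against 5025, 4684 and 4441 CPM in N2, or 1.54-fold higher. unc-98, a protein of the muscle attachment sites, was at 24.5, 19.3 and 17.8 CPM in mutants, against 10.5, 10.4 and 7.38 CPM in N2 (1.12 ± 0.20, adjusted p = 0.00553). The troponin I gene tni-3 was at 38.5, 32.2 and 32.5 CPM in mutants, against 17.3, 17.9 and 16.97 CPM in N2 (0.98 ± 0.19, adjusted p = 0.00677). unc-97, another attachment protein, rose by 0.92 ± 0.18 (adjusted p = 0.00728). The myosin markers lay in the same direction without passing, with unc-54 at 0.92 (adjusted p = 0.104) and myo-3 at 0.57 (adjusted p = 0.353). In the pharynx list 5 of 24 genes rose (20.8%) and none fell, with a median of 0.89. The pharyngeal myosin gene myo-1 was at 119.2, 95.8 and 94.8 CPM in mutants, against 30.4, 42.9 and 26.9 CPM in N2 (1.62 ± 0.37, adjusted p = 0.0165). Its partner myo-2 did not pass (1.37, adjusted p = 0.0628). Of the other pharynx calls tnt-4 and tni-4 were troponin genes, and tnc-2 and myo-5 were named after their values were seen. The number of muscle calls was 4, 11 and 10 without mutant replicates 1, 2 and 3, and 7 and 3 without N2 replicates 1 and 3. All 5 pharynx calls, myo-1 included, were lost without mutant replicate 1, N2 replicate 1 or N2 replicate 3.

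A minority of neuronal genes rose. Of 32 tested pan-neuronal genes 7 rose (21.9%, against 7.63% over all genes) and none fell, with a median of 0.45, and the summed level was 1.08-fold that of N2. unc-44, the giant ankyrin of axons, was at 257, 218 and 239 CPM in mutants, against 114, 126 and 108 CPM in N2 (1.04 ± 0.19, adjusted p = 0.00579). rab-3, a synaptic vesicle GTPase, was at 14.6, 12.5 and 14.9 CPM in mutants, against 6.37, 8.02 and 6.76 CPM in N2 (0.99 ± 0.20, adjusted p = 0.00941, lost without N2 replicate 1). The markers unc-119 (0.24, adjusted p = 0.601) and snb-1 (0.25, adjusted p = 0.122) did not pass. There were 4 rises among 34 genes of ciliated sensory neurons (11.8%), 4 among 16 of touch neurons (25.0%), 2 among 19 of transmitter synthesis and transport (10.5%) and 3 among 30 FMRFamide-like peptides (10%), with no fall in any of them. The summed level was 1.08-fold for touch neurons and 0.93-fold for transmitter genes, both with overlapping genotypes. Neuropeptide-like genes outside the epidermal group held 3 rises (5.26%) and 1 fall among 57, with a summed level 1.07-fold that of N2 and overlapping. The FMRFamide rises numbered 1 with RLE scaling, 0 without the filter and 8 with DESeq2, and the transmitter rises 0 without mutant replicate 1 or N2 replicate 1 and 1 without mutant replicate 2 or N2 replicate 3. Without single libraries the pan-neuronal count was 2 (mutant replicate 1, N2 replicate 1 or N2 replicate 3), 3 (mutant replicate 3), 5 (mutant replicate 2) or 13 (N2 replicate 2), and the touch neuron, FMRFamide and other neuropeptide rises were 0 without mutant replicate 1, N2 replicate 1 or N2 replicate 3. The ciliated neuron rises were 1 without mutant replicate 1, 2 without mutant replicate 2 or 3 and 0 without N2 replicate 1 or N2 replicate 3. Without N2 replicate 2 there were 13 FMRFamide and 10 other neuropeptide rises, and without mutant replicate 2 there were 2 touch neuron rises and 1 other neuropeptide rise. Without mutant replicate 3 there was 1 FMRFamide rise.

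**Figure D3:**
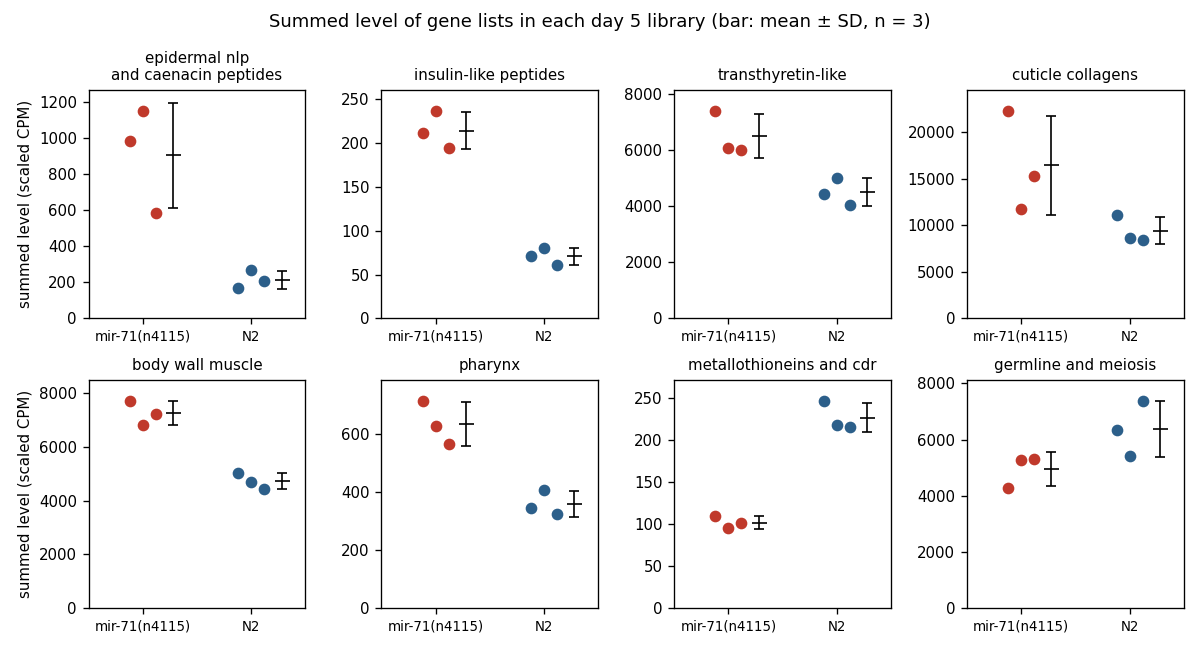
Summed levels of 8 gene lists in each day 5 library, in scaled CPM on axes that start at 0, with mutants left of N2 and the mean ± SD of 3 libraries beside the points. The genotypes do not overlap in any of these chosen panels, and the gap is widest for epidermal peptides, insulin-like peptides and metallothioneins. Other lists did overlap, among them those of intestine and vitellogenins.

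The intestine list moved both ways. Of 27 tested genes 9 rose (33.3%, against 7.63% over all genes) and 4 fell (14.8%, against 3.10%), with a median of 0.29. The summed level overlapped between genotypes at 5480, 5989 and 8510 CPM in mutants and 5911, 5487 and 5726 CPM in N2. The gut master regulator elt-2 (0.29, adjusted p = 0.64) and the brush border actin act-5 (0.65, adjusted p = 0.189) did not pass. The gut esterase gene ges-1 was at 6.18, 6.24 and 12.8 CPM in mutants, against 40.2, 34.2 and 43.9 CPM in N2 (-2.23 ± 0.26, adjusted p = 0.000449). ifd-2, an intermediate filament of the gut, was at 25.8, 23.2 and 34.9 CPM in mutants, against 9.85, 13.3 and 8.69 CPM in N2 (1.39 ± 0.23, adjusted p = 0.00337). ges-1 and ifd-2 thus separated the genotypes completely in opposite directions. Besides ges-1 and mtl-2, the falls were cpr-6 (-1.16) and asp-4 (-0.88), both protease genes named after their values were seen. Without single libraries the rises numbered 4 (mutant replicates 1 or 3), 1 (N2 replicate 1), 2 (N2 replicate 3) or 6.

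Lysosomal and digestive enzymes showed the same division. Of 31 tested proteases and glycosidases 6 fell (19.4%, against 3.10% over all genes) and 4 rose (12.9%, against 7.63%). hex-1, a hexosaminidase that trims glycans in the lysosome, was at 24.1, 23.2 and 24.4 CPM in mutants, against 123, 85.4 and 87.2 CPM in N2 (-2.04 ± 0.15, adjusted p = 3.92e-05). The related gene hex-5 rose, at 6.93, 4.56 and 4.42 CPM in mutants, against 1.53, 1.64 and 1.94 CPM in N2 (1.64 ± 0.27, adjusted p = 0.00338). The aspartyl protease gene asp-14 was at 7.73, 5.41 and 8.07 CPM in mutants, against 50.3, 50.9 and 53.0 CPM in N2 (-2.87 ± 0.27, adjusted p = 0.000157). asp-13, another of that family, was also lower (-2.44 ± 0.60, adjusted p = 0.0235), a call lost without mutant replicates 1 or 2 or N2 replicates 1 or 3. The lysosomal lipase gene lipl-2 was at 1.36, 0.786 and 2.20 CPM in mutants, against 7.56, 10.9 and 16.7 CPM in N2 (-3.02 ± 0.42, adjusted p = 0.00119). Every mutant value of hex-1 and asp-14 lay well below every N2 value. The protease falls numbered 3 without mutant replicate 1 or N2 replicate 3 and 4 without mutant replicate 2 or N2 replicate 1, and the rises 1 or 2 without any 1 library.

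Immune effector families also split. Of 133 tested C-type lectins, secreted sugar-binding proteins many of which respond to infection, 16 rose (12.0%) and 10 fell (7.52%). Over all genes 7.63% rose and 3.10% fell. clec-66 was at 3.22, 2.86 and 9.85 CPM in mutants, against 20.6, 45.9 and 54.1 CPM in N2 (-2.93 ± 0.47, adjusted p = 0.00269). clec-223 was at 3.58, 1.70 and 2.71 CPM in mutants, against 17.6, 19.2 and 12.9 CPM in N2 (-2.65 ± 0.37, adjusted p = 0.00115). clec-232 went the other way, at 12.4, 9.59 and 22.0 CPM in mutants, against 1.49, 0.742 and 1.05 CPM in N2 (3.77 ± 0.38, adjusted p = 0.000266). These 3 genes separated the genotypes in opposite directions. In the whole family 34 genes lay higher and 18 lower without overlap among 133, beside 3743 and 2695 among all 16764 genes, a similar share. The count of lectin falls was 6 without mutant replicate 1 and 16 without mutant replicate 3. Among 24 saposin-like genes, which encode pore-forming peptides of the gut, 5 rose (20.8%) and 3 fell (12.5%). spp-21 was at 18.3, 60.7 and 17.3 CPM in mutants, against 0.425, 1.60 and 0.838 CPM in N2 (5.00 ± 0.59, adjusted p = 0.000449). spp-3 was at 139.6, 130.0 and 136 CPM in mutants, against 262, 234 and 209.9 CPM in N2 (-0.80 ± 0.18, adjusted p = 0.0149, lost without mutant replicates 1 or 2 or N2 replicate 1). The saposin-like rises numbered 2 to 4 and the falls 0 to 2 without any 1 library. The infection response gene irg-5 was at 46.2, 34.7 and 44.9 CPM in mutants, against 14.3, 20.3 and 14.1 CPM in N2 (1.37 ± 0.20, adjusted p = 0.00182), and it was higher in mutants at day 0 as well (1.77, adjusted p = 0.00429). The infection response list, which holds irg-5 and asp-14, gave no common direction, with 3 rises (11.1%) and 5 falls (18.5%) among 27. Without mutant replicates 1 or 2 or N2 replicate 3 that list held 1 fall, and without mutant replicate 3 or N2 replicate 1 it held 3. Its rises numbered 1 without mutant replicate 1 or N2 replicate 3.

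Genes for all 3 steps of pyrimidine breakdown rose. These enzymes degrade uracil and thymine, and in mammals the same route inactivates fluoropyrimidine drugs. They were the only calls in the list of 16 tested genes of pyrimidine and thymidylate metabolism (18.8%, against 7.63% rises over all genes). Most members of that list build or salvage nucleotides, and its median was -0.16. dpyd-1, which encodes dihydropyrimidine dehydrogenase, was at 67.6, 57.5 and 64.2 CPM in mutants, against 21.7, 21.2 and 31.9 CPM in N2 (1.34 ± 0.22, adjusted p = 0.00272). dhp-1, the dihydropyrimidinase gene of the next step, was at 27.4, 24.8 and 14.8 CPM in mutants, against 5.22, 6.42 and 7.17 CPM in N2 (1.83 ± 0.29, adjusted p = 0.00247). Its paralog dhp-2, named after its values were seen, did not pass (0.02, adjusted p = 0.975). upb-1, the ureidopropionase gene of the last step, was at 224, 208 and 181 CPM in mutants, against 88.8, 128 and 98.0 CPM in N2 (0.96 ± 0.19, adjusted p = 0.008). The genotypes did not overlap for any of the 3 genes, and all 3 calls held without each library in turn and under every other setting. Both genotypes were on FUdR, a fluoropyrimidine, from the start of adulthood, and whether its breakdown differed was not measured.

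Amino acid and lipid metabolism showed a few large changes. The tyrosine and kynurenine list held 4 rises (28.6%) and no fall among 14 tested genes, with a median of 0.66. Over all genes 7.63% rose and 3.10% fell. tatn-1, the tyrosine aminotransferase that starts tyrosine breakdown, was at 99.8, 72.8 and 68.9 CPM in mutants, against 14.3, 10.6 and 13.2 CPM in N2 (2.67 ± 0.31, adjusted p = 0.000449). haao-1, a dioxygenase of the kynurenine pathway, was at 32.9, 19.1 and 18.0 CPM in mutants, against 6.45, 8.04 and 7.28 CPM in N2 (1.68 ± 0.26, adjusted p = 0.00228). Both genes kept their calls without each library, whereas the list count dropped to 2 without mutant replicates 1 or 2 or N2 replicates 1 or 2. Among 8 tested far genes, which encode secreted fatty acid and retinol binding proteins, 3 rose (37.5%) and 1 fell (12.5%). far-6 was at 597, 417 and 531 CPM in mutants, against 207, 258 and 183 CPM in N2 (1.25 ± 0.17, adjusted p = 0.00111). The abundant far-1 was at 2542, 1982 and 2332 CPM in mutants, against 1548, 1447 and 1229 CPM in N2 (0.70 ± 0.17, adjusted p = 0.024, lost without mutant replicates 1 or 3 or N2 replicates 1 or 3). A single rise remained among the far genes without N2 replicate 1 or N2 replicate 3. None of 16 fatty acid desaturase and elongase genes passed with edgeR or DESeq2, and 0 had an unadjusted p under 0.05.

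Detoxification genes were called in both directions. Among 59 cytochrome P450 genes 10 rose (16.9%) and 3 fell (5.08%). Among 63 UDP-glucuronosyltransferase genes 5 rose (7.94%, near the 7.63% over all genes) and 6 fell (9.52%, against 3.10%). With DESeq2 there were 6 falls of P450 genes and 12 of glucuronosyltransferase genes. ugt-29 was at 434, 243 and 286 CPM in mutants, against 83.0, 56.4 and 66.7 CPM in N2 (2.22 ± 0.28, adjusted p = 0.000585). cyp-13B1 was at 4.93, 6.66 and 3.06 CPM in mutants, against 0.297, 0.839 and 0.262 CPM in N2 (3.27 ± 0.47, adjusted p = 0.00139). Both were higher in every mutant library than in any N2 library. gst-4, a glutathione S-transferase used as a reporter of the stress factor SKN-1, was lower, at 15.4, 12.2 and 16.5 CPM in mutants, against 23.4, 23.4 and 27.4 CPM in N2 (-0.75 ± 0.15, adjusted p = 0.0106, lost without N2 replicate 3). The P450 rises numbered 1, 3, 1 and 2 without mutant replicate 1, mutant replicate 2, N2 replicate 1 and N2 replicate 3. The falls of that family numbered 0 without any of the mutant libraries or without N2 replicate 3, and 1 without N2 replicate 1. The glucuronosyltransferase rises numbered 2, 2 and 1 without mutant replicate 1, N2 replicate 1 and N2 replicate 3, and the falls 3 without N2 replicate 3.

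Germline genes had slightly lower values in mutants. All 45 tested genes of germline identity and meiosis had a negative log2 fold change, from -0.87 to -0.06, with a median of -0.38. Of them 8 passed as lower (17.8%, against 3.10% over all genes). mes-6, a subunit of the Polycomb-like complex of the germ line, was at 22.8, 26.7 and 28.5 CPM in mutants, against 40.6, 37.8 and 48.6 CPM in N2 (-0.70 ± 0.14, adjusted p = 0.00953, lost without mutant replicate 1 or N2 replicate 3). fbf-1, an RNA-binding protein of germline stem cells, was at 19.1, 20.6 and 25.0 CPM in mutants, against 38.5, 31.7 and 48.6 CPM in N2 (-0.87 ± 0.21, adjusted p = 0.0228, lost without mutant replicates 1 or 2 or N2 replicates 1 or 3). The summed level of the list was 4265, 5268 and 5318 CPM in mutants, against 6351, 5399.7 and 7376 CPM in N2. Mutant replicate 3 and N2 replicate 2 lay close to each other, so the separation was narrow. The 8 falls became 0, 2 and 3 without mutant replicates 1, 2 and 3, and 1, 15 and 0 without N2 replicates 1, 2 and 3, and they numbered 17 with RLE scaling, 20 with DESeq2 and 17 on rlog values. Among 48 DNA replication genes 2 fell, or 4.17% against 3.10% over all genes, and none rose (median -0.25). They were pri-1 (-0.48, lost without mutant replicate 1 or N2 replicates 1 or 3) and bub-1 (-0.51, lost without mutant replicates 1, 2 or 3 or N2 replicates 1 or 3), both also lost without the filter, and DESeq2 called 9 falls. Among 22 DNA damage genes 2 fell (9.09%, median -0.31), and DESeq2 called 7. One was brd-1, partner of the BRCA1 homolog, at 24.9, 25.8 and 25.9 CPM in mutants, against 38.6, 40.6 and 49.1 CPM in N2 (-0.74 ± 0.14, adjusted p = 0.00567). The other, clk-2 (-0.53), lost its call without mutant replicates 1 or 2 or N2 replicates 1 or 3. None of 35 oocyte and eggshell genes passed with edgeR (median -0.20), where 3 had an unadjusted p under 0.05 and DESeq2 called 2, and the germ granule gene pgl-1 (-0.55, adjusted p = 0.0734) and oocyte marker rme-2 (-0.38, adjusted p = 0.249) did not pass either. The list of early embryonic genes, which a sterile culture should lack, held 1 rise and 1 fall among 15 (6.67% each). They were the Wnt ligand gene cwn-1 (1.11 ± 0.20) and sdz-24 (-2.29 ± 0.27). Transcripts of this list were present in every library, with a summed level of 219, 242.7 and 197 CPM in mutants, against 256, 243.1 and 249.7 CPM in N2. The day 0 means were 146 CPM in mutants and 145 CPM in N2. How far the lower share of germline transcripts moved the shares of somatic transcripts was not tested.

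Yolk transcripts varied within the mutants. Vitellogenin genes, which encode the yolk proteins that the intestine makes, summed to 74554, 71836 and 167450 CPM in mutants, against 179050, 118120 and 128760 CPM in N2. Mutant replicate 3 lay among the N2 libraries and the other mutant libraries lay below them. None of the 6 tested genes passed with edgeR, where 1 had an unadjusted p under 0.05, and DESeq2 called 0.

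Genes on the X chromosome rose more often than genes elsewhere. Of 2304 tested X-linked genes 343 rose (14.9%) and 33 fell (1.43%), with a median of 0.39, against 6.53% rises, 3.37% falls and a median of -0.01 on the autosomes. The share of rises was higher on X than on the autosomes in each of 6 classes of expression level, from 7.78% against 5.15% among the weakest genes to 22.2% against 3.99% among the strongest. The strongest class held only 45 X-linked genes. At day 0 the median of X-linked genes was 0.02. With other scalings, without the filter, with the other tools and with day 5 alone, the X share lay between 13.0% and 25.4% and the autosomal share between 5.68% and 11.7%. It was 5.95%, 11.6% and 9.29% on X without mutant replicates 1, 2 and 3, against 2.59%, 4.94% and 4.53% on the autosomes. Without N2 replicates 1, 2 and 3 it was 6.68%, 15.3% and 5.90% on X, against 2.75%, 6.95% and 2.38% on the autosomes. The X share was thus the higher in each of these. Chromosome V came next with 9.41% rises. Of the 13 tested genes of the dosage compensation machinery, which lowers X expression in hermaphrodites, none passed with edgeR (median -0.01), where 3 had an unadjusted p under 0.05 and DESeq2 called 1. X-linked genes are known to be expressed mainly in somatic cells and to be kept low in the germ line, and the germline list was the lower one in mutants. The part of germline content in the X-linked rises was not tested.

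**Figure D4:**
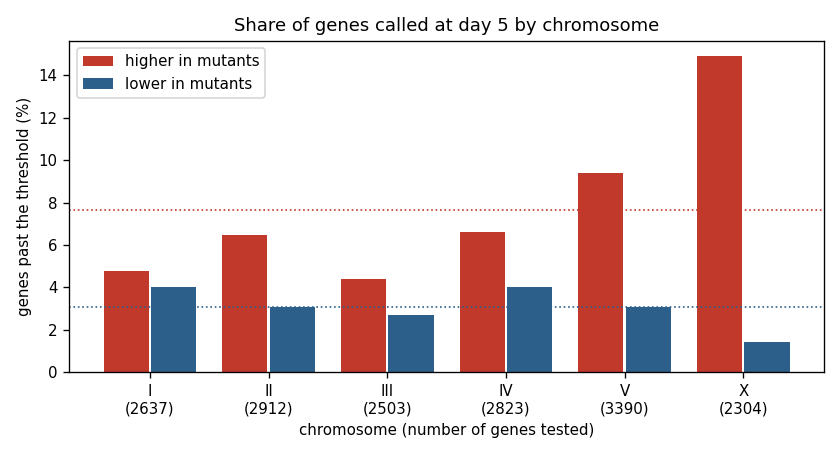
Share of tested genes past the threshold at day 5 by chromosome, in percent, with rises in mutants left of falls, dotted lines at the shares over all genes and the number of tested genes under each name. Rises reach 14.9% on X and lie between 4.39% and 9.41% on the autosomes.

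Few published targets and partners of mir-71 passed the test. Of 12 tested, tir-1 alone was called (8.33%, against 7.63% rises over all genes), as given above, and the list median was 0.20. hbl-1, a zinc finger gene of developmental timing, was at 7.43, 6.32 and 10.2 CPM in mutants, against 6.16, 5.43 and 4.97 CPM in N2 (0.53 ± 0.26, adjusted p = 0.205). The Argonaute gene alg-1, whose protein carries microRNAs, was at 45.5, 41.9 and 60.7 CPM in mutants, against 32.8, 33.3 and 28.7 CPM in N2 (0.64 ± 0.26, adjusted p = 0.126). The values of both genes were higher in every mutant library, and neither passed. pdk-1 (-0.09), unc-31 (0.47), nsy-1 (0.53), pha-4 (0.51), cdc-25.1 (-0.25), chk-1 (-0.17) and lin-42 (-0.23) did not pass. In the microRNA pathway list 1 of 20 genes was called (5%, against 3.10% falls over all genes). It was the Drosha gene drsh-1 (-0.57 ± 0.14, adjusted p = 0.0217, lost without mutant replicates 1 or 2 or N2 replicate 3). No seed-site count was made.

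Housekeeping and stress programmes were mostly not called. None of 81 ribosomal protein genes passed (median -0.02), nor any of 43 respiratory chain genes (-0.11), 33 proteasome genes (-0.16) or 23 genes of the unfolded protein response of the endoplasmic reticulum (0.00), by edgeR. At an unadjusted p under 0.05 these lists held 1, 5, 7 and 4 genes, and DESeq2 called 1, 2, 3 and 2 of them. Of 22 genes of the mitochondrial unfolded protein response 1 rose (4.55%, against 7.63% over all genes) and 2 fell (9.09%, against 3.10%). jmjd-3.1, a histone demethylase of that response, was at 9.76, 8.78 and 8.43 CPM in mutants, against 2.42, 3.85 and 2.25 CPM in N2 (1.65 ± 0.26, adjusted p = 0.00269). The chaperonin gene hsp-60 was lower (-0.65 ± 0.17, adjusted p = 0.0314, lost without mutant replicates 1, 2 or 3 or N2 replicates 1 or 3). Among 27 heat shock genes 1 rose (3.70%) and 2 fell (7.41%). The small heat shock protein gene hsp-43 was at 500.1, 386 and 310 CPM in mutants, against 160.1, 200.2 and 159.6 CPM in N2 (1.20 ± 0.21, adjusted p = 0.00442). Among 196 nuclear hormone receptor genes 12 rose and 1 fell, or 6.12% and 0.51%, close to or below the shares over all genes. nhr-67 rose by 1.74 ± 0.28 (adjusted p = 0.00287) and nhr-3 by 1.79 ± 0.36 (adjusted p = 0.00937). The receptor rises numbered 3, 3, 2 and 4 without mutant replicate 1, mutant replicate 3, N2 replicate 1 and N2 replicate 3.

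Fewer genes were called at day 0, when 12 genes were higher and 10 lower in mutants (0.131% of genes tested). Of the genes called at day 5, 12 rises and 6 falls were also called in the same direction at day 0, among them ppfr-1 and irg-5, and none was called in the opposite direction. A test of the difference between the genotype effects at the 2 ages called 93 genes (0.555%), 76 in the positive and 17 in the negative direction. Of those, 75 were also among the rises at day 5 and all 17 among the falls. The positive calls numbered 16, 30, 8, 38 and 8 without mutant replicate 1, mutant replicate 2 and N2 replicates 1, 2 and 3, and the negative ones 4, 4, 2, 8 and 2. Without mutant replicate 3 they numbered 82 and 30.

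The 5 day 5 genes with the smallest p for that difference kept the call without each day 5 library. They were hex-1, mtl-1, ins-7, str-163 and nhx-6. For mtl-1 the log2 fold change was -5.50 at day 5 and -0.31 at day 0, and the difference was -5.18 ± 0.54 (adjusted p = 0.00501). ins-7 had 3.75 CPM in mutants and 3.07 CPM in N2 at day 0, and its genotype effects differed by 2.52 ± 0.29 (adjusted p = 0.00517). str-163, a chemoreceptor gene, was at 6.90, 10.7 and 4.23 CPM in mutants, against 0.042, 0.117 and 0.105 CPM in N2 at day 5 (6.25 ± 0.48, adjusted p = 4.05e-05). nhx-6, which encodes a sodium and proton exchanger, was at 15.1, 13.8 and 14.5 CPM in mutants, against 0.382, 0.195 and 0.471 CPM in N2 (5.46 ± 0.39, adjusted p = 3.92e-05). Both genes were nearly silent in aged N2, and at day 0 nhx-6 stood at 0.147 CPM in mutants and 0.127 CPM in N2. For ppfr-1 the difference between the effects at the 2 ages did not pass (0.29 ± 0.27, adjusted p = 0.666).

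**Figure D5:**
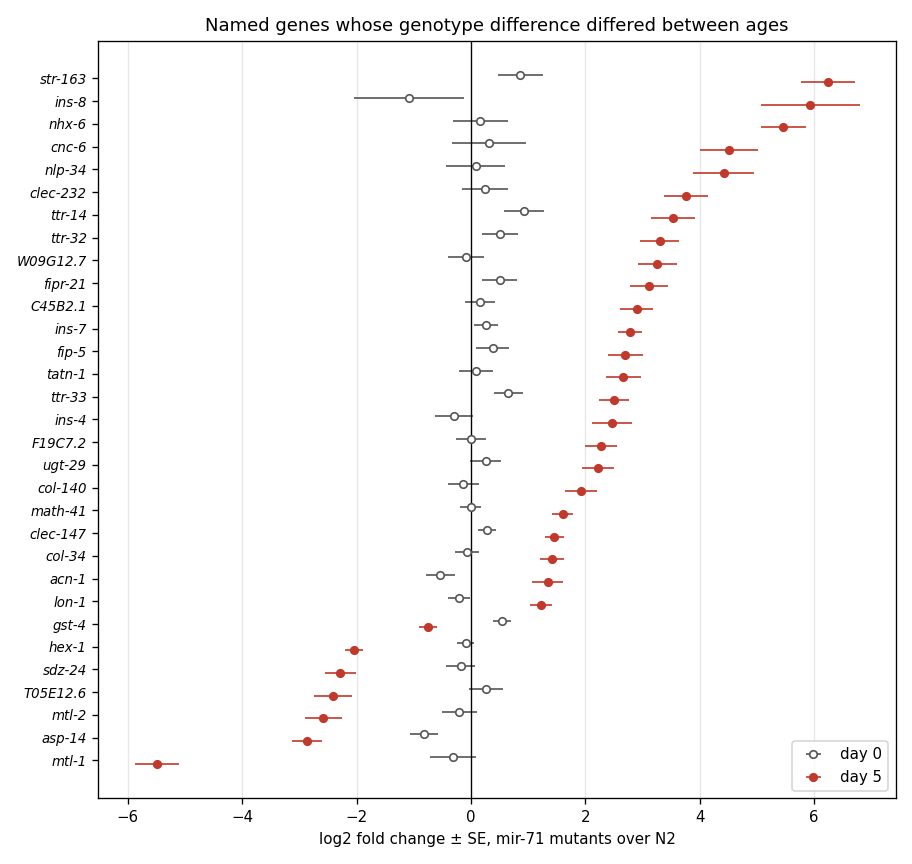
Log2 fold changes ± SE, mir-71 mutants over N2, at day 0 (open circles) and day 5 (filled circles) for the 31 named genes whose genotype effect differed between the ages. At day 0 they lie between -1.09 and 0.93, and at day 5 they reach from -5.50 for mtl-1 to 6.25 for str-163. The ins-8 values rest on 2 counts in N2 at day 5. Named genes were chosen mainly by their day 5 differences.

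Several strongly changed genes have only a sequence name. Among them W09G12.7 was at 46.3, 69.7 and 43.3 CPM in mutants, against 4.84, 8.28 and 3.25 CPM in N2 (3.26 ± 0.34, adjusted p = 0.000285). C45B2.1 was at 91.8, 75.2 and 44.2 CPM in mutants, against 9.001, 10.6 and 8.54 CPM in N2 (2.90 ± 0.29, adjusted p = 0.000228). Y57G11C.51 was at 11.9, 13.5 and 20.1 CPM in mutants, against 80.2, 52.0 and 68.4 CPM in N2 (-2.14 ± 0.24, adjusted p = 0.000374). T05E12.6 fell by 2.41 ± 0.33 on the log2 scale (adjusted p = 0.00113). F19C7.2 rose by 2.27 ± 0.28, and K10C2.8 was at 11.9, 8.37 and 13.5 CPM in mutants, against 1.83, 2.42 and 2.04 CPM in N2. srlf-34, a gene with a symbol and no role assigned here, was at 203, 319 and 83.9 CPM in mutants, against 14.99, 23.9 and 15.9 CPM in N2 (3.46 ± 0.55, adjusted p = 0.00267). All of these separated the genotypes in every library, which the choice of these genes required.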

How the data were processed

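Poly(A) RNA of whole animals was sequenced in 12 libraries, 3 per genotype and age. The authors deposited a table of raw counts per gene, and a second table of regularised log2 values (rlog) that they computed from counts with DESeq2. Per the submitters' processing notes, reads were aligned with STAR 2.4.0h to WBcel235. No read counter, gene annotation or strand setting is named in those notes.

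The deposited counts were tested with edgeR 4.0.16 (R 4.3.3): filterByExpr, TMM factors and a quasi-likelihood fit of 4 group means over all 12 libraries, with Benjamini-Hochberg adjustment over 16764 of 46726 genes and a threshold of 0.05. Errors are SE of log2 fold changes, derived as the absolute log2 fold change over the square root of the quasi-likelihood F. They are approximate, above all for genes with counts near 0 in a group. CPM are scaled by TMM. The alternatives were RLE and upper-quartile factors, TMM factors without germline, yolk and collagen genes, no filter, DESeq2 1.42.0, limma 3.58.1 on rlog values, day 5 alone, a replicate block and leaving out each day 5 library. The fit was also run on simulated data with no age difference, the same spread for all genes and 200 genes changed in the mutant day 5 libraries. That setting is simpler than these data, so it checks the code and not the error rate here.

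The comparison, the gene lists and the genes named were chosen with earlier results of these data known. Named were the 10 largest rises and falls whose mean log2 CPM reached 3 and whose libraries did not overlap, at most 2 per symbol prefix, up to 3 called members with the smallest p per list, genes at the locus, published mir-71 genes, the 5 genes with the smallest p for the age difference, and 5 rises and 5 falls among genes with a sequence name only. The genes with a sequence name only met the same level and overlap criteria as the largest rises and falls. A few other genes are marked as named after their values were seen. Total counts at day 5 were 21374849 to 60842599 per library, and count intervals and floors cover counting error only. Positions came from the Ensembl annotation of WBcel235 and symbols from a table of gene names. Motif and seed-site counts were not run, because no sequences were used here.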

Additional observations from a re-analysis of the deposited data

Results flagged for a closer look

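A total of 31 of the 182 named genes had genotype effects that differed between day 5 and day 0, against 0.555% of all genes tested. The test was edgeR's quasi-likelihood test of the difference, with Benjamini-Hochberg adjustment over all genes. Named genes were chosen mainly by their day 5 effects, and 5 of them by the p of this test. That choice favours genes that pass it. The values are log2 differences, the day 5 effect minus the day 0 effect of mutants over N2, and 24 were positive and 7 negative. Among secreted peptide genes they were 4.34 for nlp-34, 4.19 for cnc-6, 2.61 for fipr-21, 2.32 for fip-5, 2.52 for ins-7, 2.76 for ins-4 and 7.02 for ins-8, the last with 2 counts in N2 at day 5. Transthyretin-like genes gave 2.80 for ttr-32, 2.60 for ttr-14 and 1.84 for ttr-33. Genes of the cuticle and epidermis gave 2.06 for col-140, 1.49 for col-34, 1.43 for lon-1 and 1.88 for acn-1, a molting gene.

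Enzyme, transporter and lectin genes gave 2.58 for tatn-1, 1.97 for ugt-29, 5.29 for nhx-6, 3.52 for clec-232 and 1.18 for clec-147. The remaining positive values were 5.38 for str-163, 1.61 for math-41, 3.35 for W09G12.7, 2.75 for C45B2.1 and 2.27 for F19C7.2. The negative values were -5.18 for mtl-1, -2.37 for mtl-2, -1.95 for hex-1, -2.04 for asp-14, -1.30 for gst-4, -2.10 for sdz-24 and -2.67 for T05E12.6.

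Of the 31 genes, 9, 11 and 25 kept the call without mutant replicates 1, 2 and 3, and 6, 15 and 6 without N2 replicates 1, 2 and 3. hex-1, mtl-1, str-163, ins-7 and nhx-6 kept it without each of the 6 libraries.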

How the results depend on the processing

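At day 5 the rises numbered 1113 with RLE factors, 1449 with upper-quartile factors, 1242 with TMM factors taken without germline, yolk and collagen genes, 1254 without the filter, 1541 with DESeq2 and 1296 on rlog values, against 1279, and 2033 with the day 5 libraries alone. The falls numbered 825 with RLE factors, 340 without the filter, 1301 with DESeq2 and 946 on rlog values, against 519. Leaving out a day 5 library gave 480 to 1365 rises and 117 to 776 falls. For the difference between ages, the positive calls numbered 193 without the filter and 356 with DESeq2, against 76, and the negative calls 52 without the filter, 176 with DESeq2 and 48 on rlog values, against 17. Leaving out a day 5 library gave 8 to 82 positive and 2 to 30 negative calls. With the replicate number as a block, a replicate block fit within each age, there were 2438 rises, 1166 falls, 817 positive and 228 negative calls. Same-numbered libraries deviated together only for number 3 (r = -0.0002, -0.010 and 0.192 for numbers 1, 2 and 3). Mutant replicate 1 and N2 replicate 2 gave r = 0.288. Deviations within groups of 3 libraries are too few to decide whether the numbers pair the samples. The causes were not tested. No called gene and no named gene changed sign under these settings, and rises outnumbered falls at day 5 in each. The balance within some mixed lists did change. C-type lectins had 13 rises and 16 falls without mutant replicate 3, against 16 and 10. The median log2 fold change of all genes was 0.05 in the main fit and -0.03 with RLE factors, DESeq2 and rlog values. Of 159 named genes called, 84 kept the call without each library in turn and 143 under the other 8 settings.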

Other observations

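Several families defined by a shared gene symbol, and chosen after their values were seen, had calls in 1 direction only at day 5, beside 7.63% rises and 3.10% falls over all genes. Among 94 tested unc genes, named for uncoordinated movement and mostly acting in muscle and neurons, 23 rose and none fell, and their median was 0.60 on the log2 scale. Of the ion channel families there were 7 rises and no fall among 41 twk potassium channel genes and 6 rises and no fall among 40 lgc ligand-gated channel genes. Among 24 pals genes, a family known for its response to intracellular pathogens, 5 rose and none fell. Of 16 srlf genes 5 rose and none fell, and of 11 asp aspartyl protease genes 3 fell and none rose. How many calls the symbol families keep without single libraries was not tested.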
